A study of Rattus norvegicus with 23 samples.

Results

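The endoplasmic reticulum (ER) folds secreted and membrane proteins, and 40 rat genes for its chaperones, its disulfide-forming enzymes, its degradation machinery, its stress sensors and its translocon were followed through 48 h of extracellular acidosis. The members were chosen by gene symbol as named genes of the ER, with earlier results of these data known. All 40 were found among the 30452 genes of the deposited count table. They fall into 6 roles, with 11 chaperones and cochaperones, 2 lectin chaperones, 8 genes of disulfide formation, 12 genes of ER-associated degradation, 4 sensors and transcription factors and 3 translocon genes. RNA came from rat kidney lines, NRK-52E, labelled NRKE and epithelial, and NRK-49F, labelled NRKF and fibroblast. Every culture had 24 h in serum-free medium after growth in medium with 10% FCS, and then 48 h at pH 7.4 (control) or at pH 6.0 (acidosis, set with HCl). There were n = 6 samples of NRK-52E cells at each pH, n = 6 of NRK-49F cells at pH 7.4 and n = 5 at pH 6.0. Each line is a single established line, no genotype or drug differed between the groups, and the labels do not say whether samples of a group came from separate cultures. The p-values therefore measure the spread between these samples, which may be partly technical. Each gene had a single estimate of spread over all groups, so the spread within either line enters the tests of both.

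Proteins enter the ER through the Sec61 translocon, fold with the help of the Hsp70-type chaperone BiP (Hspa5), of calnexin and calreticulin and of the protein disulfide isomerases, and are handed to the cytosol for proteasomal degradation when folding fails, a route called ER-associated degradation (ERAD). When unfolded proteins accumulate, the sensors IRE1 (Ern1), PERK (Eif2ak3) and ATF6 start the unfolded protein response. IRE1 splices the Xbp1 mRNA, ATF6 is cleaved to a transcription factor, and XBP1 and ATF6 raise the transcription of chaperone and ERAD genes, while PERK slows translation and favours the translation of ATF4. Counts per gene do not show the splicing of Xbp1, the cleavage of ATF6 or the phosphorylation of the sensors.

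Total counts per sample ranged from 16412564 to 34250535, and 14777 genes, all 40 members among them, passed the filter on low counts. Levels are given as FPM, fragments per 1000000 fragments of the TMM-scaled library, which are not divided by gene length and are compared only within a gene. The epithelial label of NRK-52E rested on few markers. Of 10 epithelial marker genes in the table, Krt7 and Krt8 passed the filter. At pH 7.4, Krt7 was higher in NRK-52E than in NRK-49F cells (log2 difference 3.95, 329 to 634 against 14 to 59 counts). Krt8 was lower there (-0.75). Cdh1 reached at most 12 counts and Epcam at most 1 count in any sample. Of 12 fibroblast markers, 11 passed, of which 9 were lower and 2 higher in NRK-52E cells at pH 7.4, and Col3a1 was among the latter. Pdgfra, a fibroblast receptor gene, had 169 counts in NRK-52E sample A021 and 15 to 41 counts in the other NRK-52E samples at pH 7.4, against 0 to 2 counts at pH 6.0 and at least 3508 counts in every NRK-49F sample, so sample A021 stood apart. In NRK-52E cells 10 of the 11 fibroblast markers tested fell with pH and 0 rose, where 36.6% of all genes fell. The summed level of the 12 markers went from 6290 to 9776 FPM at pH 7.4 to 3143 to 3953 FPM at pH 6.0. Nearly all of it came from Col3a1 (90962 to 167185 counts at pH 7.4, 32761 to 64202 at pH 6.0) and Col5a2 (22100 to 49409 and 16079 to 45429 counts). In NRK-49F cells 5 of the 11 fell and 0 rose, where 14.4% of all genes fell, and the sum was 11208 to 14433 FPM at pH 7.4 and 7626 to 10313 FPM at pH 6.0. Krt7 and Krt8 fell in both lines. Dcn and Thy1 were at 0 in every NRK-52E sample. Endothelial markers (4 genes) summed to 9.24 to 21 and 1.42 to 3.25 FPM in NRK-52E cells at pH 7.4 and pH 6.0 and to at most 2.32 FPM in NRK-49F cells. The sum hid opposite changes in NRK-52E cells. Tek fell from 208 to 537 counts at pH 7.4 to 16 to 45 at pH 6.0 (log2 fold change -3.03). Pecam1 rose from 0 to 5 counts to 5 to 26 (3.00). Macrophage markers (4 genes) summed to at most 8.55 FPM in NRK-52E cells and to 21.6 to 33.3 and 217 to 251 FPM in NRK-49F cells at pH 7.4 and pH 6.0, nearly all from Cd68, with Adgre1 at 0 throughout. The part of these shifts in the results on ER genes was not tested. Without A021 the counts of changed members in NRK-52E cells were the same as with it, 26 higher and 5 lower. In bulk samples, fewer cells of a type and less RNA per cell cannot be told apart.

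Promoter windows from 250 bases before to 50 bases after the start site were searched for the sequence elements through which ATF6 and XBP1 are known to act. The RefSeq table (build GRCr8) held a window for 32 of the 40 members, and Manf, Pdia3, Pdia6, Derl1, Os9, Atf6, Ern1 and Sec61a1 had none. The ER stress response element (ERSE, CCAAT and CCACG separated by 9 bases, both strands) stood in 9 of the 32 windows (28.1%) and in 22 of all 33469 windows of the table (0.0657%). These 9 members were Hspa5, Hsp90b1, Dnajc3, Creld2, Calr, Canx, Ero1b, Derl3 and Xbp1. ERSE-II (ATTGG and CCACG separated by a single base) stood in Hyou1, Herpud1 and Dnajb11, 9.38% of the windows against 0.0508% of all. The core of the XBP1-binding element UPRE (TGACGTGG) stood in Hyou1, Dnajc10 and Txndc11, against 0.595% of all windows, and in Hyou1 it overlapped an ERSE-II. In all, 14 members (43.8%) held any of these 3 elements, against 0.708% of all windows. The single motif CCAAT stood in 24 of the 32 windows (75%, against 37.5% of all). The C/EBP-ATF type elements TGATGCAA and TGATGAAA stood in 1 and 0 of them, against 0.795% and 1.13% of all windows. A match is a description of the letters in a window and not evidence of binding.

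The stretches below show the elements in 5 members that were higher at pH 6.0 in NRK-52E cells (Hspa5, Hsp90b1, Hyou1, Dnajc3 and Xbp1). They also show those in 3 members not called there over all samples (Herpud1, Creld2 and Calr), so that carriers of either outcome can be read side by side. Within the sample groups of the labels, Herpud1 was called higher in sample group 3 and Creld2 lower in sample group 1. Capitals mark the matched motif letters of the elements and, in ERSE-II, also the single spacer base, which may be any base. The strand shown runs 5′ to 3′ in the direction of the gene. The stretches lie in GRCr8 at chr3:38452953-38453011 (Hspa5, plus strand), chr7:23012327-23012489 (Hsp90b1, minus strand), chr8:53602671-53602824 (Hyou1, plus strand), chr15:102432514-102432572 (Dnajc3, plus strand), chr14:84604538-84604596 (Xbp1, plus strand), chr19:10614801-10614851 (Herpud1, minus strand), chr7:121789219-121789277 (Creld2, plus strand) and chr19:40213117-40213173 (Calr, plus strand), all upstream of the annotated start.
Hspa5: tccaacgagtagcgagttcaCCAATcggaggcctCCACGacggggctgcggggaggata
Hsp90b1: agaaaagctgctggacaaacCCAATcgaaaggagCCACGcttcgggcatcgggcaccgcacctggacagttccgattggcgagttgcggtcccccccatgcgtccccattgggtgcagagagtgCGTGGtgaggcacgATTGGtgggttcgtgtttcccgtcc
Hyou1: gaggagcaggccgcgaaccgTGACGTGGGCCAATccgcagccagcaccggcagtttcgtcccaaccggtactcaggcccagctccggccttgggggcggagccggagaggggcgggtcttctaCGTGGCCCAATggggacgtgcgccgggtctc
Dnajc3: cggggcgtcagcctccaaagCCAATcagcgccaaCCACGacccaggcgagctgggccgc
Xbp1: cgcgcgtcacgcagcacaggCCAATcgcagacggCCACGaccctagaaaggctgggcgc
Herpud1: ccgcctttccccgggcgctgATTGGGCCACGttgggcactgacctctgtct
Creld2: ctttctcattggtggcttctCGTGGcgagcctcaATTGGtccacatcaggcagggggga
Calr: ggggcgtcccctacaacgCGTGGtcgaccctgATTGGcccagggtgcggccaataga

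**Figure D1:**
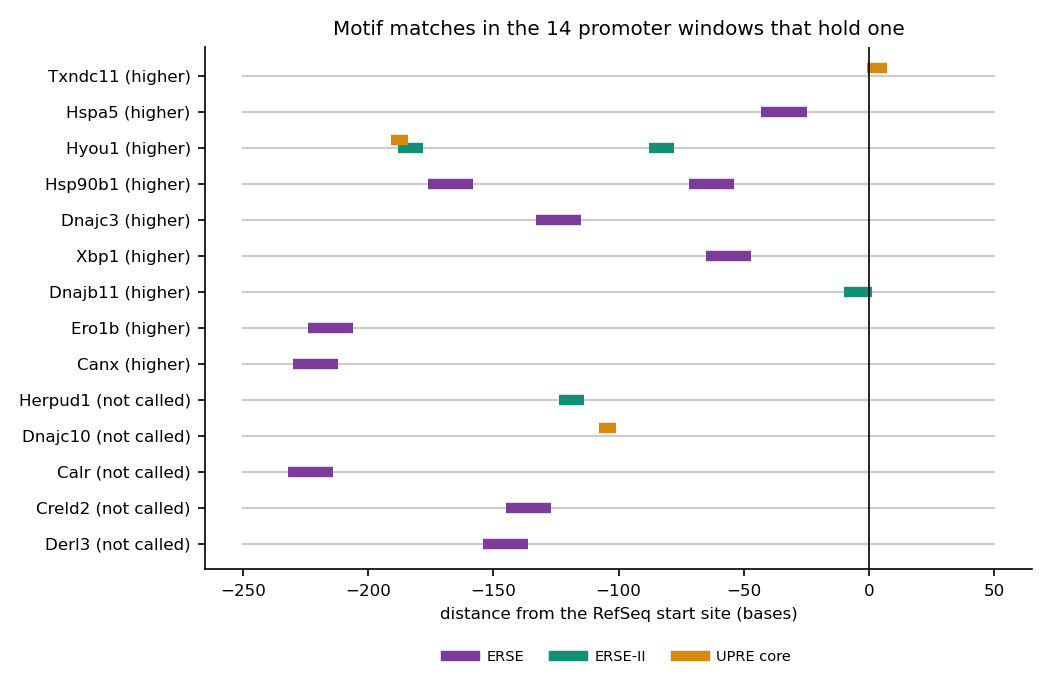
Position of each matched element (coloured bars) in the windows of the 14 members that hold one, as distance from the RefSeq start site in bases, with the members ordered by their change in NRK-52E cells and the outcome of the test there in brackets. The Hspa5 element lies from base -43 to -25 and that of Calr from -232 to -214, and 5 of the 14 carriers were not called.

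Most of these ER genes were higher at pH 6.0 in NRK-52E cells. From pH 7.4 to pH 6.0, 26 of the 40 members were higher and 5 were lower (edgeR quasi-likelihood test, adjusted p under 0.05), while over all genes tested 24.7% were higher and 36.6% were lower. Because the members were chosen with earlier results of these data known, shares of members and of all genes are set side by side only. The median log2 fold change of the members was 0.55, against -0.12 over all genes. In 21 members every sample at pH 6.0 lay above every sample at pH 7.4 and in 3 (Edem1, Edem2 and Os9) below, where all genes gave 15.4% and 23.2%. The members that were higher included all 4 sensors and transcription factors, 8 of 11 chaperones and cochaperones, 5 of 8 genes of disulfide formation, 6 of 12 ERAD genes, 2 of 3 translocon genes and 1 of 2 lectin chaperones. Their log2 fold changes ran from 0.27 (Canx) to 2.12 (Txndc11). The members that were lower were Sil1, Pdia4, Edem1, Edem2 and Os9, with log2 fold changes from -0.34 to -0.84. The 9 members not called were Dnajc10, Creld2, Calr, Pdia6, Txndc5, Herpud1, Edem3, Derl3 and Sec61b. Of the 14 members with a promoter element, 9 were higher and 0 lower (median log2 fold change 0.50), and of the 18 with a window but no element, 11 were higher and 4 lower (median 0.48).

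In NRK-49F cells, 6 of the 40 members were higher at pH 6.0 (Hyou1, P4hb, Ero1b, Sil1, Edem2 and Dnajc10) and 3 were lower (Pdia4, Syvn1 and Herpud1). These are 15% and 7.5% of the members, against 14.5% higher and 14.4% lower over all genes tested, so the share of higher members was that of the background. The median log2 fold change was 0.04, and 0.00 over all genes. None of the sensors, lectin chaperones or translocon genes was called by edgeR's quasi-likelihood test. The count of higher members fell to 3 (Hyou1, Ero1b and Dnajc10) when any of the samples A039, A040, A042, A054 or A055 was left out, each time because Sil1, P4hb and Edem2 were lost.

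The lines differed in 24 of the 40 members when the difference between their changes was tested itself. For 20 members the change was more positive in NRK-52E than in NRK-49F cells and for 4 it was more negative, against 16.8% and 24.7% of all genes tested. The count depended on the sample groups of the labels. Within sample groups 1 (NRK-52E) and 4 (NRK-49F, 2 samples at pH 6.0) 13 members differed, 11 above and 2 below 0 (all genes 8.92% and 14.9%). Within sample groups 3 and 6 it was 28, 23 above and 5 below 0 (all genes 15.8% and 22.6%). The labels do not match sample groups across the lines, so these pairings are arbitrary. Sample groups 1 with 6 and 3 with 4 were not compared. Lost within sample groups 1 and 4 were the calls of Hyou1, Sil1, Dnajc3, Sdf2l1, Manf, Pdia3, Pdia5, Herpud1, Os9, Atf6 and Ssr1, and within sample groups 3 and 6 that of Manf. Gained within sample groups 3 and 6 were the calls of Hsp90b1, Dnajb11, Canx, Ero1b and Derl2. The 4 with the more negative change were Sil1, Edem1, Edem2 and Os9. The largest differences in log2 fold change were those of Txndc11 (2.37 ± 0.245 SE, adjusted p = 6.23e-08), of Manf at very low counts (1.58 ± 0.616 SE, adjusted p = 0.0423), of Sel1l (1.54 ± 0.184 SE, adjusted p = 4.96e-07) and of Hspa5 (1.53 ± 0.348 SE, adjusted p = 0.00108). Called the same way in both lines were Hyou1, P4hb and Ero1b (higher) and Pdia4 (lower). The calls went in opposite directions for Sil1 and Edem2 (lower in NRK-52E, higher in NRK-49F) and for Syvn1 (higher in NRK-52E, lower in NRK-49F). Differences not called over all samples include Hsp90b1 (0.56, adjusted p = 0.0573), Canx, Derl2 and Ern1. Sdf2l1 lost its call of a difference (log2 difference from 0.88 to 1.30 over all libraries left out in turn) without A021, A022, A036, A037, A038, A043, A052, A054 or A056, and Ssr1 (0.33 to 0.47) without A022, A023, A036, A037, A038, A043 or A056.

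**Figure D2:**
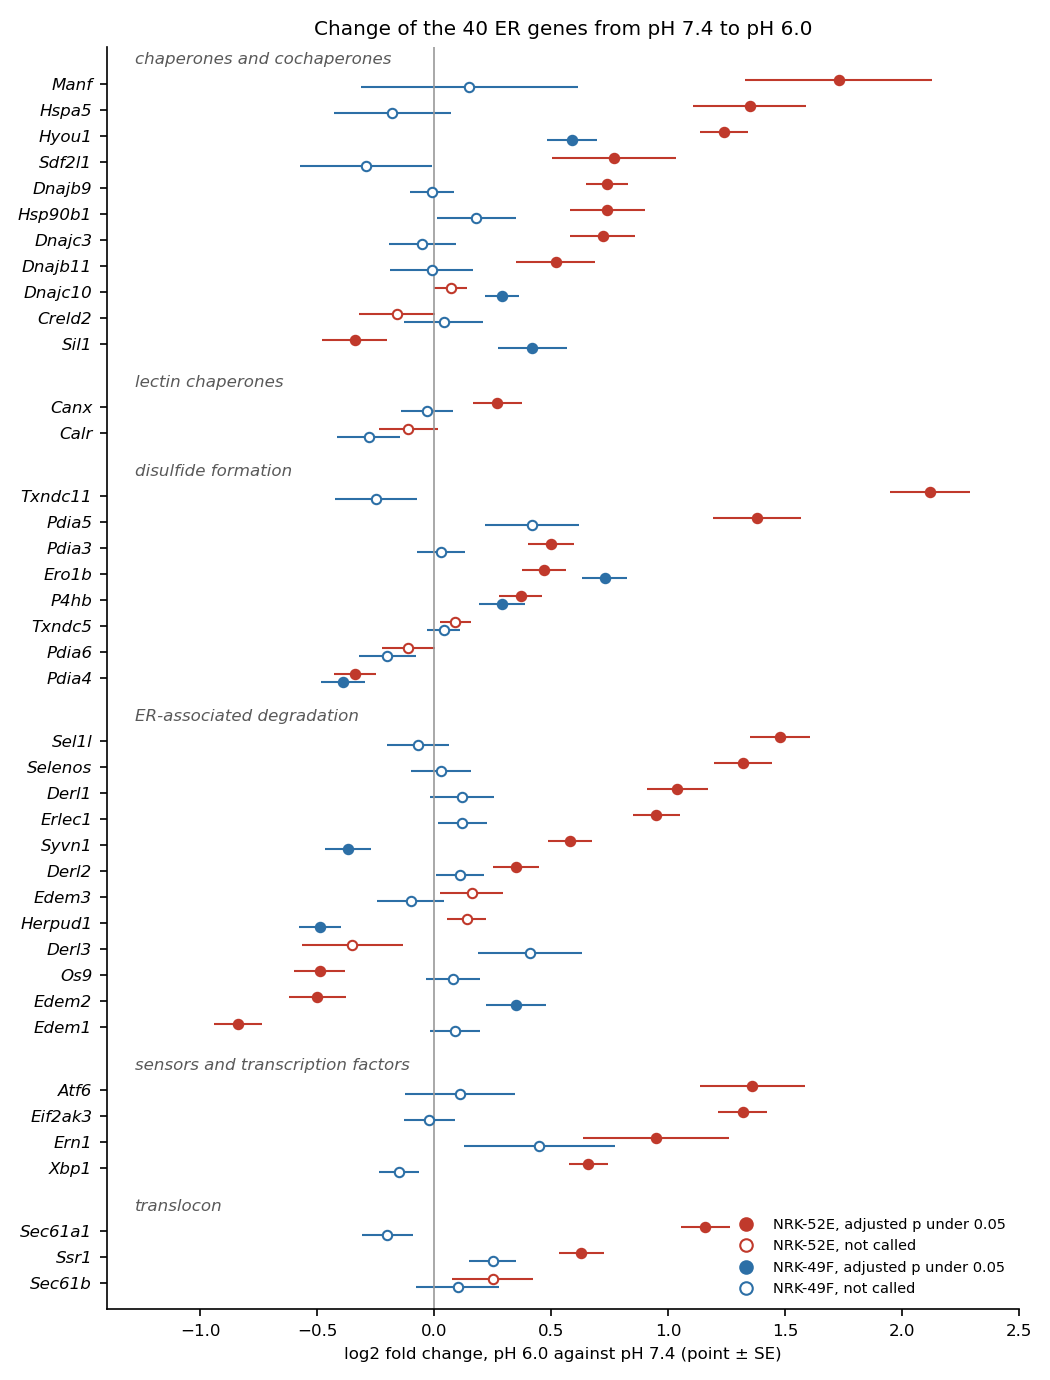
Log2 fold change from pH 7.4 to pH 6.0 (x axis, point ± SE) of each of the 40 members, grouped by role, in NRK-52E (red) and NRK-49F (blue) cells, with filled points for an adjusted p under 0.05. The 26 filled red points right of 0 contrast with 6 filled blue ones, and Edem1, Edem2, Os9, Sil1 and Pdia4 are the filled red points left of 0.

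BiP, encoded by Hspa5 (ENSRNOG00000018294, chromosome 3), is the main Hsp70-type chaperone of the ER lumen and holds the sensors inactive at rest. In NRK-52E cells, Hspa5 ranged from 805 to 1010 FPM at pH 7.4 (median 894, n = 6). At pH 6.0 it measured 1165, 1110 and 1187 FPM in the samples of sample group 1 and 3656, 3292 and 3346 FPM in those of sample group 3. All samples at pH 6.0 lay above all at pH 7.4, and the change was 2.56-fold (log2 fold change 1.35 ± 0.242 SE, adjusted p = 3.74e-05). In NRK-49F cells, Hspa5 ranged from 567 to 709 FPM at pH 7.4 (median 628) and measured 602, 491, 599, 604 and 516 FPM at pH 6.0. Those groups overlapped (log2 fold change -0.18 ± 0.25 SE, adjusted p = 0.647). The spread in that test is shared with NRK-52E cells, whose samples at pH 6.0 split by sample group. In the model with sample groups, Hspa5 changed by -0.12 ± 0.11 SE in sample group 4 (adjusted p = 0.464). In sample group 6 it changed by -0.24 ± 0.0982 SE (adjusted p = 0.0958).

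Hyou1 (ENSRNOG00000010944, chromosome 8), the large Hsp70-related chaperone that acts as a nucleotide exchange factor for BiP, rose in both lines. It ranged from 186 to 227 FPM at pH 7.4 (median 206) and from 376 to 611 FPM at pH 6.0 (median 479) in NRK-52E cells. The ranges did not overlap (log2 fold change 1.24 ± 0.104 SE, adjusted p = 4.55e-10). In NRK-49F cells, Hyou1 ranged from 117 to 143 FPM at pH 7.4 (median 129) and measured 222, 202, 181, 171 and 194 FPM at pH 6.0, again without overlap (log2 fold change 0.59 ± 0.107 SE, adjusted p = 2e-04). The rise was larger in NRK-52E cells by 0.65 on the log2 scale (adjusted p = 0.0011), a difference of 0.29 within sample groups 1 and 4 (adjusted p = 0.139) and of 0.94 within sample groups 3 and 6 (adjusted p = 7.8e-06).

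Sil1 (ENSRNOG00000019826, chromosome 18), the other nucleotide exchange factor of BiP among the members, was lower in NRK-52E and higher in NRK-49F cells, but each call was lost without 1 of several samples. In NRK-52E cells, Sil1 ranged from 53.6 to 95.4 FPM at pH 7.4 (median 59.4) and from 43.7 to 58.1 FPM at pH 6.0 (median 50.7). The groups overlapped, and the highest value belonged to sample A035 (log2 fold change -0.34 ± 0.14 SE, adjusted p = 0.0415). In NRK-49F cells, Sil1 ranged from 62.7 to 84 FPM at pH 7.4 (median 68.3) and measured 127, 74.3, 94.8, 109 and 74.2 FPM at pH 6.0. These groups overlapped too (log2 fold change 0.42 ± 0.146 SE, adjusted p = 0.0324). The fall in NRK-52E cells was lost without A024, A025, A035, A036 or A037 (log2 fold change from -0.38 to -0.19 over all libraries left out in turn) and under RLE scaling, no filter, DESeq2 and a fit of the line alone, and the rise in NRK-49F cells without A039, A040, A042, A051, A053, A054 or A055 (0.30 to 0.50). The difference between the lines (-0.76 ± 0.203 SE, adjusted p = 0.00423) held without each library and was lost within sample groups 1 and 4 (-0.69, adjusted p = 0.0995).

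Of the other chaperones and cochaperones, Hsp90b1, the ER Hsp90 GRP94, measured 751 ± 141 FPM (SD, n = 6) at pH 7.4 and 1257 ± 382 FPM (SD, n = 6) at pH 6.0 in NRK-52E cells (log2 fold change 0.74, adjusted p = 0.000338). The J-domain partners of BiP split: Dnajb9 (0.74), Dnajc3 (0.72) and Dnajb11 (0.52, but 0.15 with adjusted p = 0.316 in sample group 1) rose in NRK-52E cells, and Dnajc10, a J-domain protein with disulfide reductase activity, was not called there (0.07, adjusted p = 0.366) but rose in NRK-49F cells (0.29, adjusted p = 0.00383). Sdf2l1, which forms a complex with Dnajb11, rose in NRK-52E cells (0.77, adjusted p = 0.0151), a call lost without A038 (0.59) and in sample group 1 (0.19, adjusted p = 0.471). Creld2, an ER stress-induced protein, was not called in either line (-0.16 and 0.04). In sample group 1 of NRK-52E cells it was called lower (-0.41, adjusted p = 0.0342). Manf (ENSRNOG00000014201, chromosome 8), a secreted ER stress protein, was at the edge of detection, with 2 to 25 counts per sample in NRK-52E cells and 2 to 12 in NRK-49F cells. It ranged from 0.108 to 0.501 FPM at pH 7.4 (median 0.169) and from 0.601 to 1.33 FPM at pH 6.0 (median 0.791) in NRK-52E cells, without overlap (log2 fold change 1.73 ± 0.399 SE, adjusted p = 0.000616). In NRK-49F cells, Manf ranged from 0.089 to 0.4 FPM at pH 7.4 (median 0.302) and measured 0.204, 0.61, 0.148, 0.289 and 0.278 FPM at pH 6.0, with overlap. Its difference between the lines (1.58, adjusted p = 0.0423) was lost without any of the samples A021, A022, A024, A034, A035, A037, A038, A039, A041, A042, A051, A052, A054, A055 or A056 (1.39 to 1.94).

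The lectin chaperones hold glycoproteins during folding, calnexin in the membrane and calreticulin in the lumen. Canx (calnexin, ENSRNOG00000003343, chromosome 10) ranged from 510 to 666 FPM at pH 7.4 (median 604) in NRK-52E cells and measured 602, 575 and 571 FPM in sample group 1 and 883, 870 and 837 FPM in sample group 3 at pH 6.0. Only the samples of sample group 3 lay above the range at pH 7.4 (log2 fold change 0.27 ± 0.106 SE, adjusted p = 0.0312). The call was lost without A022, A023, A035, A036, A037 or A038 (0.21 to 0.33). In NRK-49F cells, Canx ranged from 465 to 546 FPM at pH 7.4 (median 504) and measured 479, 482, 519, 488 and 508 FPM at pH 6.0, with overlap (log2 fold change -0.03, adjusted p = 0.892). Calr (calreticulin) was not called in either line (-0.11, adjusted p = 0.468, and -0.28, adjusted p = 0.127).

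Among the genes of disulfide formation, Txndc11 (ENSRNOG00000002452, chromosome 10), a membrane thioredoxin-domain protein that takes part in ERAD, had the largest rise of all members in NRK-52E cells. It ranged from 16.2 to 22.6 FPM at pH 7.4 (median 19.3) and from 50.9 to 121 FPM at pH 6.0 (median 78.6). The ranges were far apart, with a 4.35-fold change (log2 fold change 2.12 ± 0.172 SE, adjusted p = 2.56e-10). In NRK-49F cells, Txndc11 ranged from 24.5 to 35.8 FPM at pH 7.4 (median 28.9) and measured 21.9, 26.3, 25.2, 23 and 24.8 FPM at pH 6.0. Those groups overlapped (log2 fold change -0.25, adjusted p = 0.305).

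Ero1b (ENSRNOG00000002609, chromosome 17), an oxidase that recharges protein disulfide isomerases, rose in both lines. In NRK-52E cells, Ero1b ranged from 13.2 to 15.7 FPM at pH 7.4 (median 14.1) and from 16 to 23 FPM at pH 6.0 (median 20.7), just without overlap (log2 fold change 0.47 ± 0.0929 SE, adjusted p = 0.000112). In NRK-49F cells, Ero1b ranged from 12.7 to 15.4 FPM at pH 7.4 (median 14.1) and measured 20.3, 22.7, 25.8, 21.2 and 26.4 FPM at pH 6.0, all above pH 7.4 (log2 fold change 0.73 ± 0.0968 SE, adjusted p = 3.72e-06). It was the largest rise among the members called in NRK-49F cells, and its difference between the lines was not called over all samples (-0.25, adjusted p = 0.139). That difference was 0.05 within sample groups 1 and 4 (adjusted p = 0.888) and -0.52 within sample groups 3 and 6 (adjusted p = 0.017).

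Pdia4 (ERp72, ENSRNOG00000006228, chromosome 4), a protein disulfide isomerase, fell in both lines. In NRK-52E cells, Pdia4 ranged from 399 to 498 FPM at pH 7.4 (median 441) and from 293 to 429 FPM at pH 6.0 (median 356), with overlap (log2 fold change -0.34 ± 0.0904 SE, adjusted p = 0.00225). In NRK-49F cells, Pdia4 ranged from 448 to 570 FPM at pH 7.4 (median 503) and measured 426, 355, 402, 396 and 347 FPM at pH 6.0, all below pH 7.4 (log2 fold change -0.39 ± 0.0952 SE, adjusted p = 0.00348). The other disulfide isomerases did not move as a block. Pdia5 (1.38), Pdia3 (0.50), the isomerase that works with calnexin and calreticulin, and P4hb (0.37), the classical protein disulfide isomerase, rose in NRK-52E cells, and Pdia6 (-0.11) and Txndc5 (0.09) were not called. In NRK-49F cells, P4hb rose by 0.29 on the log2 scale (adjusted p = 0.0257), and Pdia3, Pdia5, Pdia6 and Txndc5 were not called over all samples. Pdia5 was called higher there in sample group 4 (0.94, adjusted p = 0.000423), with a change of 0.00 in sample group 6.

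**Figure D3:**
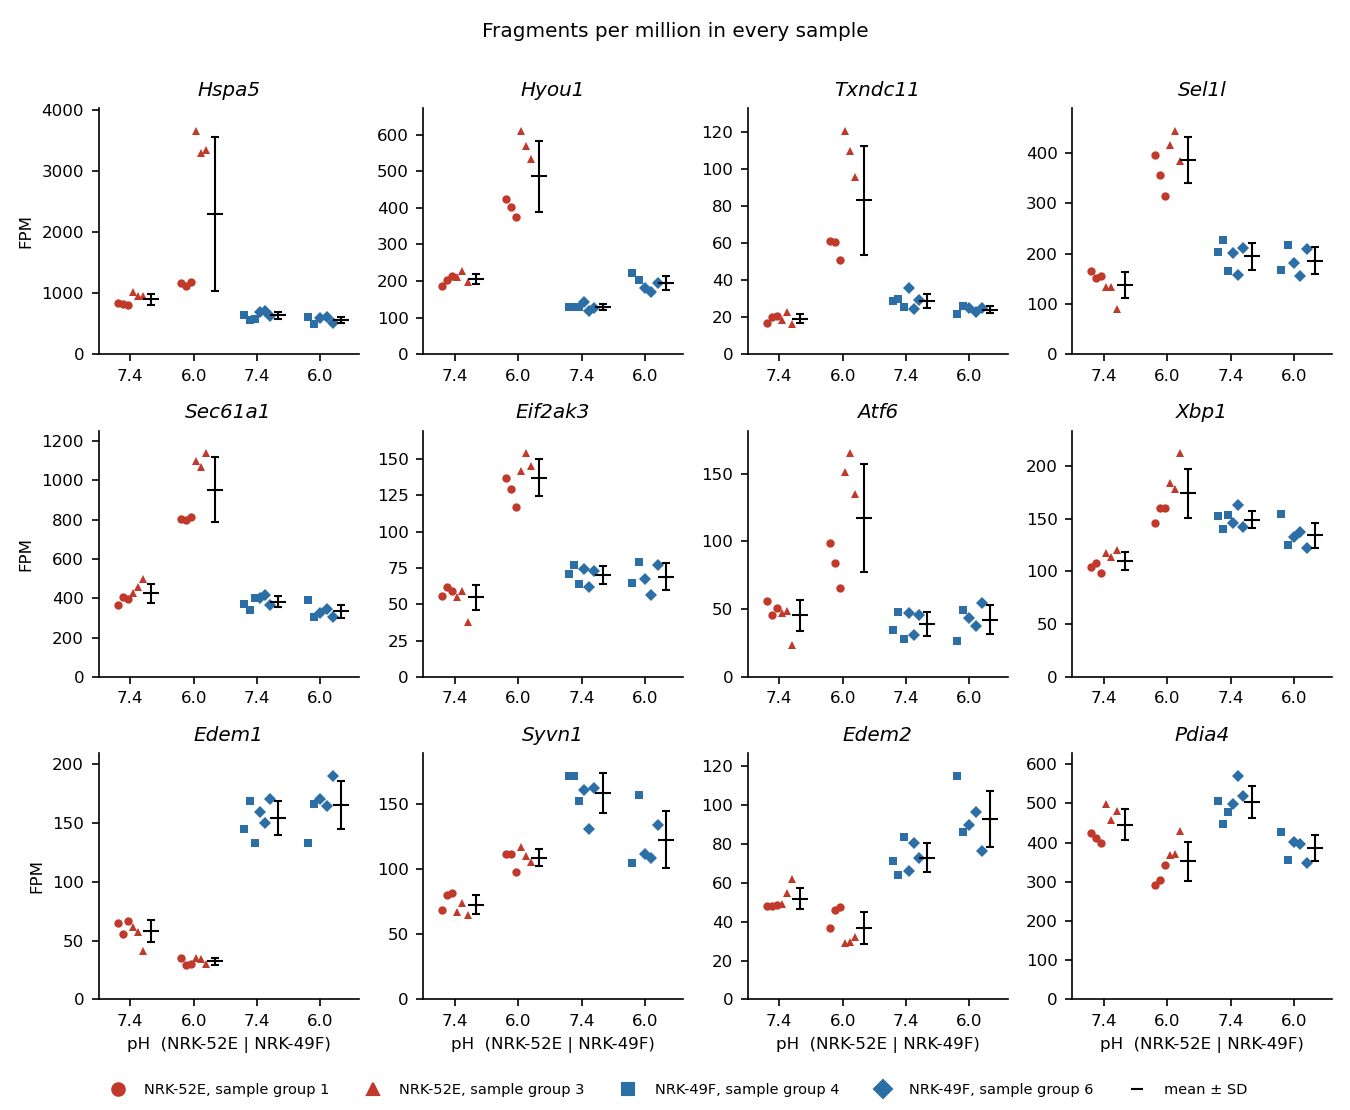
FPM of 12 members in every sample (y axis from 0, points; the marker shape gives the sample group of the labels) by pH and line, with the mean ± SD as a black bar beside each group. Hspa5 at pH 6.0 in NRK-52E cells splits into 1110 to 1187 FPM in sample group 1 and 3292 to 3656 FPM in sample group 3, while Edem1 falls to 29.7 to 35.4 FPM in all 6 samples.

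The ERAD genes moved in both directions in NRK-52E cells. Of the membrane machinery that moves and ubiquitinates substrates, Sel1l, Syvn1, Derl1, Derl2 and Selenos rose, and Herpud1 and Derl3 were not called. Of the genes that act on the glycans of substrates before that step, Edem1, Edem2 and Os9 fell, Erlec1 rose and Edem3 was not called. Sel1l (ENSRNOG00000004464, chromosome 6), the scaffold of the ubiquitin ligase complex, ranged from 90.3 to 165 FPM at pH 7.4 (median 143) and from 314 to 445 FPM at pH 6.0 (median 391) in NRK-52E cells. The ranges were separate, with a 2.78-fold change (log2 fold change 1.48 ± 0.128 SE, adjusted p = 8.13e-10). In NRK-49F cells, Sel1l ranged from 158 to 227 FPM at pH 7.4 (median 203) and measured 167, 217, 182, 155 and 210 FPM at pH 6.0, with overlap (log2 fold change -0.07, adjusted p = 0.758).

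Syvn1 (Hrd1, ENSRNOG00000020950, chromosome 1), the ubiquitin ligase held by Sel1l, moved in opposite directions. In NRK-52E cells, Syvn1 ranged from 64.9 to 82.2 FPM at pH 7.4 (median 71.6) and from 98 to 117 FPM at pH 6.0 (median 111), without overlap (log2 fold change 0.58 ± 0.0937 SE, adjusted p = 1.07e-05). In NRK-49F cells, Syvn1 ranged from 131 to 172 FPM at pH 7.4 (median 162) and measured 105, 157, 112, 109 and 134 FPM at pH 6.0, with A043 and A056 inside the range at pH 7.4 (log2 fold change -0.37 ± 0.098 SE, adjusted p = 0.00645). Both calls held without each library. The fall in NRK-49F cells was not called within sample group 4 (-0.35, adjusted p = 0.0903) or sample group 6 (-0.36, adjusted p = 0.0506).

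Herpud1 (ENSRNOG00000018796, chromosome 19), a membrane protein that organises this complex, was not called in NRK-52E cells, where it ranged from 173 to 214 FPM at pH 7.4 (median 192) and from 187 to 240 FPM at pH 6.0 (median 207), with overlap (log2 fold change 0.14, adjusted p = 0.157). It was called higher in sample group 3 (0.28, adjusted p = 0.0344) and not called in sample group 1 (-0.02, adjusted p = 0.924). In NRK-49F cells, Herpud1 ranged from 57.7 to 69.6 FPM at pH 7.4 (median 66.3) and measured 54.4, 40.9, 46.1, 47.7 and 41 FPM at pH 6.0, all below pH 7.4 (log2 fold change -0.49 ± 0.0896 SE, adjusted p = 0.000194). The difference between the lines was 0.63 ± 0.123 SE (adjusted p = 0.000231), and 0.45 within sample groups 1 and 4 (adjusted p = 0.0569). Of the other genes of the membrane step in NRK-52E cells, Selenos (1.32) and the derlins Derl1 (1.04) and Derl2 (0.35) rose, and Derl3, at 2.32 to 5.58 FPM, was not called (-0.35, adjusted p = 0.165).

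Edem1 (ENSRNOG00000055365, chromosome 4), which marks misfolded glycoproteins for disposal, had the largest fall of all members. In NRK-52E cells, Edem1 ranged from 41.1 to 66.4 FPM at pH 7.4 (median 59.7) and from 29.7 to 35.4 FPM at pH 6.0 (median 32.1). The groups did not overlap, and the change was 1.79-fold lower (log2 fold change -0.84 ± 0.103 SE, adjusted p = 2.05e-07). In NRK-49F cells, Edem1 ranged from 133 to 170 FPM at pH 7.4 (median 154) and measured 133, 166, 170, 164 and 190 FPM at pH 6.0, with overlap (log2 fold change 0.09, adjusted p = 0.554).

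Edem2 (ENSRNOG00000019299, chromosome 3), the mannosidase that starts the trimming, ranged from 48.3 to 62.1 FPM at pH 7.4 (median 48.9) and from 28.9 to 47.3 FPM at pH 6.0 (median 34.4) in NRK-52E cells. The groups did not overlap, with the lowest values, 28.9, 29.3 and 32.1 FPM, in sample group 3 (log2 fold change -0.50 ± 0.123 SE, adjusted p = 0.00121). In NRK-49F cells, Edem2 ranged from 64.2 to 83.3 FPM at pH 7.4 (median 71.9) and measured 115, 86.1, 89.9, 96.5 and 76.2 FPM at pH 6.0, with only A056 inside the range at pH 7.4 (log2 fold change 0.35 ± 0.127 SE, adjusted p = 0.0428). The rise in NRK-49F cells was lost without A039, A040, A042, A051, A053, A054 or A055 (0.26 to 0.41), while the fall in NRK-52E cells held without each library but was not called in sample group 1 (-0.16, adjusted p = 0.335, against -0.88 in sample group 3). Edem3 was not called in either line. The lectins that read trimmed glycans differed from each other in NRK-52E cells, where Os9 fell (-0.49, adjusted p = 0.000453, but -0.23 with adjusted p = 0.0854 in sample group 1) and Erlec1 rose (0.95, adjusted p = 1.95e-08), and neither was called in NRK-49F cells (0.08 and 0.12).

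All sensors were called higher at the mRNA level in NRK-52E cells, Ern1 in sample group 3 but not in sample group 1. Atf6 (ENSRNOG00000024632, chromosome 13) ranged from 23.3 to 55.9 FPM at pH 7.4 (median 48) and measured 98.9, 84.3 and 65.5 FPM in sample group 1 and 151, 165 and 135 FPM in sample group 3 at pH 6.0. All lay above pH 7.4, where A035 was the lowest (2.57-fold, log2 fold change 1.36 ± 0.225 SE, adjusted p = 1.35e-05). Eif2ak3 (PERK, ENSRNOG00000006069, chromosome 4) ranged from 37.9 to 62.1 FPM at pH 7.4 (median 57.4) and from 117 to 154 FPM at pH 6.0 (median 139), without overlap (2.5-fold, log2 fold change 1.32 ± 0.105 SE, adjusted p = 1.92e-10). That was the lowest adjusted p among the 40 members in this line. Ern1 (IRE1, ENSRNOG00000012864, chromosome 10) ranged from 3.34 to 12.8 FPM at pH 7.4 (median 9.02) and from 11.3 to 22.2 FPM at pH 6.0 (median 16.5), with overlap (log2 fold change 0.95 ± 0.313 SE, adjusted p = 0.0116). Ern1 changed by 0.35 in sample group 1 (adjusted p = 0.5) and by 1.63 in sample group 3 (adjusted p = 0.00268). Xbp1 (ENSRNOG00000010298, chromosome 14) ranged from 98 to 120 FPM at pH 7.4 (median 111) and from 146 to 212 FPM at pH 6.0 (median 169), without overlap (1.58-fold, log2 fold change 0.66 ± 0.0821 SE, adjusted p = 2.75e-07).

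In NRK-49F cells, none of the sensors was called, and both pH values overlapped for each. Atf6 ranged from 28.2 to 48 FPM at pH 7.4 (median 40) and measured 26.7, 49.3, 43.4, 37.2 and 54.7 FPM at pH 6.0 (log2 fold change 0.11, adjusted p = 0.764). Eif2ak3 ranged from 61.8 to 77 FPM at pH 7.4 (median 71.9) and measured 64.8, 79.3, 67.2, 56.7 and 77.2 FPM (-0.02, adjusted p = 0.914). For both, the samples at pH 6.0 lay below, within and above the range at pH 7.4. Ern1 ranged from 6.96 to 18.7 FPM at pH 7.4 (median 12.9) and measured 5.55, 20.2, 20.8, 11.8 and 27.7 FPM at pH 6.0 (0.45, adjusted p = 0.323). Xbp1 ranged from 140 to 163 FPM at pH 7.4 (median 149) and measured 154, 125, 133, 137 and 122 FPM at pH 6.0 (-0.15, adjusted p = 0.192). The difference between the lines was called for Eif2ak3 (1.34), Atf6 (1.25) and Xbp1 (0.81) and not for Ern1 (0.50 ± 0.449 SE, adjusted p = 0.405), whose samples spread widely in both lines. For Atf6 the difference was 0.67 within sample groups 1 and 4 (adjusted p = 0.256) and 1.79 within sample groups 3 and 6 (adjusted p = 0.000727).

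At the translocon, Sec61a1 (ENSRNOG00000013743, chromosome 4), the channel subunit, ranged from 366 to 499 FPM at pH 7.4 (median 417) and from 801 to 1139 FPM at pH 6.0 (median 941) in NRK-52E cells. No sample overlapped, and the change was 2.24-fold (log2 fold change 1.16 ± 0.105 SE, adjusted p = 1.45e-09). In NRK-49F cells, Sec61a1 ranged from 339 to 418 FPM at pH 7.4 (median 385) and measured 389, 305, 323, 345 and 303 FPM at pH 6.0, with overlap (-0.20, adjusted p = 0.176). Ssr1, a subunit of the translocon-associated complex, rose in NRK-52E cells (0.63, adjusted p = 4.44e-06) and was not called in NRK-49F cells (0.25, adjusted p = 0.0615), although all samples at pH 6.0 lay above pH 7.4. Sec61b, the small subunit of the channel, was not called in either line (0.25 and 0.10).

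The size of the change in NRK-52E cells differed between the sample groups of the labels. The labels place 3 samples per pH in sample group 1 and 3 in sample group 3, and do not say what a sample group is. In sample group 1, 22 members were higher and 3 lower (18.2% and 29.3% of all genes), with a median log2 fold change of 0.38. In sample group 3, 27 were higher and 4 lower (23.1% and 32.8% of all genes), with a median of 0.67. Of the 31 members called over both, 8 were not called in sample group 1 (Sil1, Dnajb11, Sdf2l1, Canx, Edem2, Derl2, Os9 and Ern1), and Sil1 was not called in sample group 3. Of the members not called over both, Creld2 (lower) and Txndc5 (higher) were called in sample group 1 and Herpud1 (higher) in sample group 3. The change differed between the sample groups for 10 of the 40 members, against 9.91% of all genes (1534 of 15478). DESeq2 called 11 members and 14% of all genes. It was larger in sample group 3 for the chaperones Hspa5, Hyou1, Dnajb9, Dnajb11, Dnajc3 and Canx, for Txndc11 and for Atf6, and more negative there for Edem2 and Os9. Hspa5 rose by 0.48 in sample group 1 (adjusted p = 0.000432) and by 1.82 in sample group 3 (adjusted p = 1.16e-11) on the log2 scale, a difference of 1.34 ± 0.139 SE (adjusted p = 8.87e-06). Atf6 rose by 0.70 and by 1.92. Canx changed by -0.03 (adjusted p = 0.844) and by 0.51 (adjusted p = 0.000108), and the difference of 0.53 was called (adjusted p = 0.0129). Selenos (1.30 and 1.33), P4hb (0.35 and 0.39) and Xbp1 (0.59 and 0.71) rose in both, with no difference called.

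In NRK-49F cells, the change differed between sample groups 4 and 6 for 0 of the 40 members and for 0 of 15478 genes (0%) in edgeR. At an unadjusted p under 0.05 it differed for 3 members and 624 genes, and DESeq2 called 0 members and 10 genes. Sample group 4 held 2 samples at pH 6.0. Within sample group 4, 6 members were higher and 1 lower (11.4% and 10.5% of all genes), and within sample group 6, 2 were higher and 5 lower (9.85% and 10.4% of all genes). Of the 9 members called over both, Sil1, P4hb, Pdia4 and Syvn1 were not called in sample group 4, nor Sil1, Dnajc10, P4hb, Syvn1 and Edem2 in sample group 6. Of those not called over both, edgeR called Pdia5 (0.94) and Ssr1 (0.41) higher in sample group 4. In sample group 6 it called Sdf2l1 (-0.66), Calr (-0.38) and Sec61a1 (-0.29) lower. Hyou1 rose in sample group 4 (0.71) and in sample group 6 (0.49), and Ero1b rose in both (0.57 and 0.84).

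**Figure D4:**
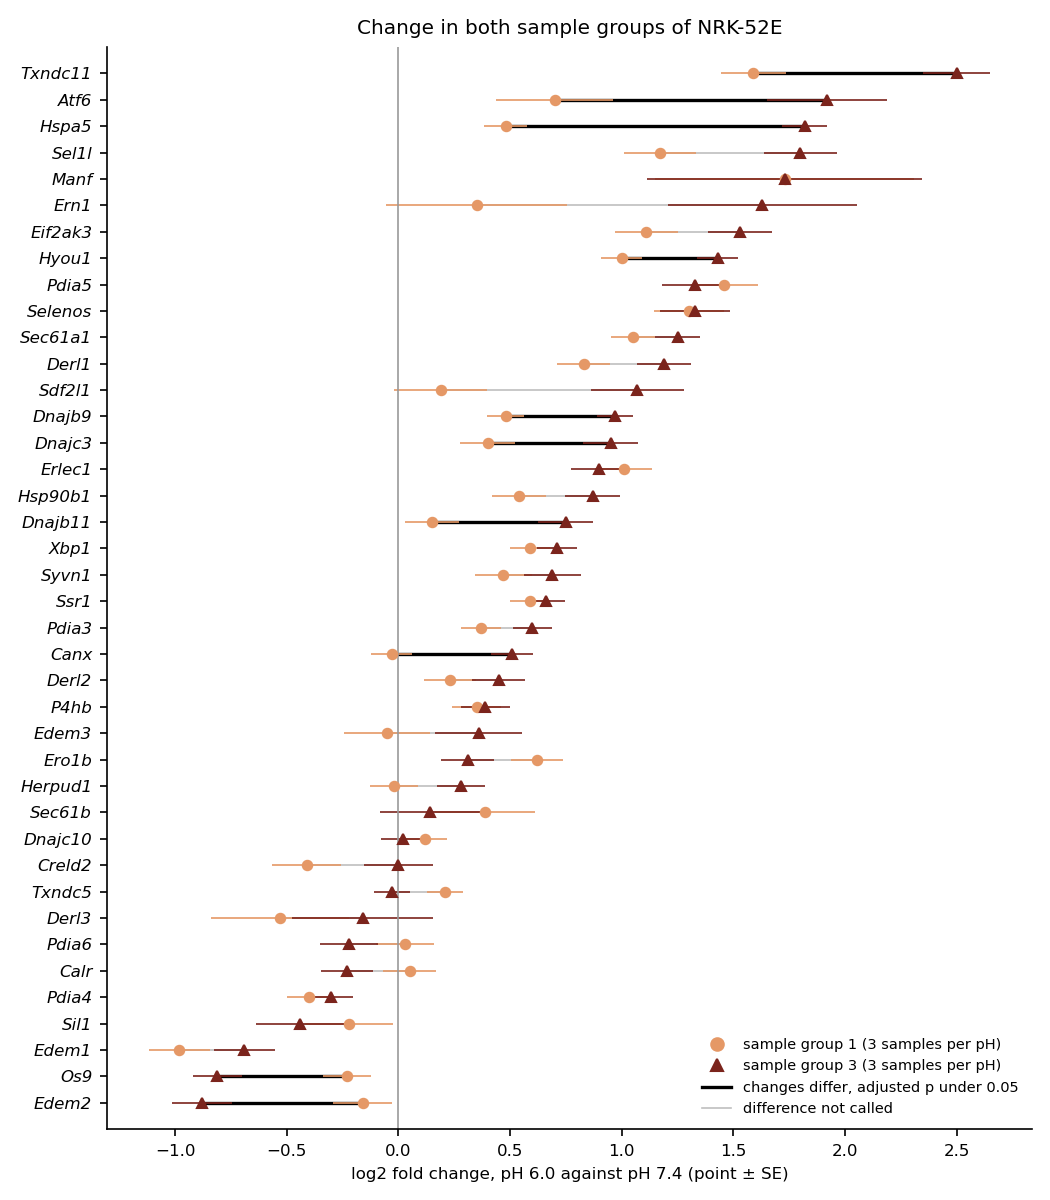
Log2 fold change from pH 7.4 to pH 6.0 (x axis, point ± SE) of the 40 members in sample group 1 (circles) and sample group 3 (triangles) of NRK-52E cells, 3 samples per pH in each, joined by a black line where the changes differ at an adjusted p under 0.05. Txndc11, Atf6 and Hspa5 have the largest changes in sample group 3, and the black lines mark 10 members.

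The members' levels were also compared between the lines at each pH. At the control pH, 7 members were above and 14 below their level in NRK-49F cells when measured in NRK-52E cells, against 35% and 33.9% of all genes. The largest excess was that of Herpud1 (2.97-fold, log2 difference 1.57 ± 0.0861 SE, adjusted p = 5.2e-14), followed by Pdia5 (0.74) and Hyou1 (0.67). The largest deficits were those of P4hb (2.98-fold lower, log2 difference -1.58 ± 0.0948 SE, adjusted p = 2.86e-13), Edem1 (-1.41), Ssr1 (-1.19) and Syvn1 (-1.12). P4hb encodes, besides its isomerase function, the beta subunit of the prolyl hydroxylase that modifies collagen. At pH 6.0, 24 members were above and 10 below NRK-49F cells, against 36.6% and 38.9% of all genes. Herpud1 (2.20) and Hspa5 (2.03, 4.08-fold) were highest relative to NRK-49F cells, and Edem1 was 5.08-fold lower (-2.34 ± 0.109 SE, adjusted p = 1.97e-15). The Hspa5 value spans 2 levels in acidotic NRK-52E cells, a mean of 1154 FPM in sample group 1 and 3432 FPM in sample group 3. In sample groups 4 and 6 of acidotic NRK-49F cells its mean was 546 and 573 FPM. These comparisons between the lines use the same samples as those of pH, so the values are set side by side only. Since the sample groups are nested in the lines, the line and its sample groups cannot be told apart.

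Summed over the 40 members, the share of all counts was 1.03% ± 0.0744 (SD, n = 6) at pH 7.4 and 1.48% ± 0.308 (SD, n = 6) at pH 6.0 in NRK-52E cells. The acidotic samples lay between 1.19% and 1.23% in sample group 1 and between 1.74% and 1.80% in sample group 3, all above the highest value at pH 7.4 (1.14%). In NRK-49F cells it was 1.14% ± 0.0494 (SD, n = 6) and 1.15% ± 0.0332 (SD, n = 5), with overlapping samples. Summed over all 23 samples, P4hb had the most counts of the members, although Hspa5 had more on average in NRK-52E cells at pH 6.0. Without P4hb, the share in NRK-49F cells was 0.838% at pH 7.4 and 0.789% at pH 6.0, and in NRK-52E cells 0.915% and 1.33%.

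**Figure D5:**
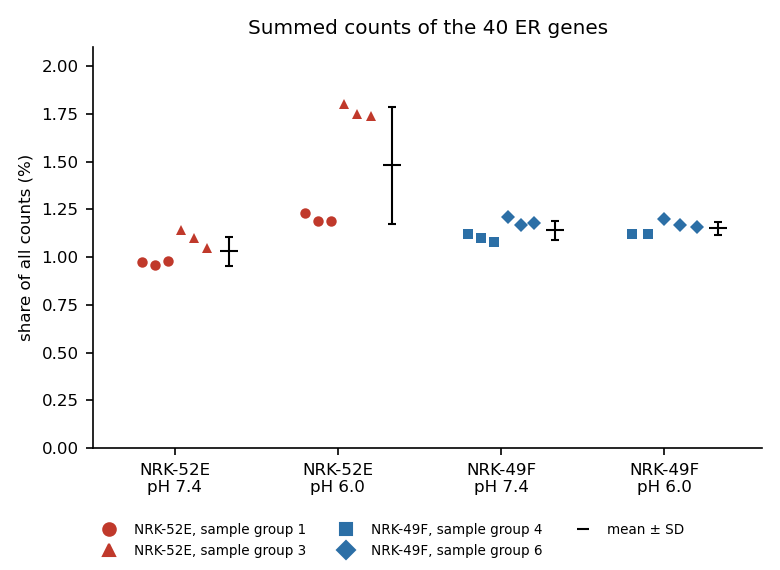
Share of all counts of a sample that fell on the 40 members (y axis, percent, from 0) for each sample by line and pH, with the mean ± SD as a black bar. The 6 NRK-52E samples at pH 6.0 lie at 1.19% to 1.80% in 2 clusters that follow the sample group, above all samples of that line at pH 7.4.

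Other genes of the pathway were counted from 5 further lists, against the same shares of all genes. These lists too were chosen with earlier results of these data known. Of 28 tested genes of translocation and N-glycosylation, NRK-52E cells had 22 higher and 4 lower (median log2 fold change 0.48). Srpra, a subunit of the receptor of the signal recognition particle, rose most (1.80 ± 0.0705 SE, adjusted p = 2.79e-15), and Tusc3, a subunit of the oligosaccharyltransferase, fell most (-1.70, adjusted p = 4.85e-12). In NRK-49F cells, 7 of the 28 rose and 2 fell, led by Sec11c (0.74) and Tusc3 (-0.34). Of 32 other ERAD genes, NRK-52E cells had 18 higher and 3 lower (median 0.37), and NRK-49F cells had 2 higher and 4 lower (median 0.00). Man1b1, an ER mannosidase, rose most in NRK-52E cells (1.17, adjusted p = 1.12e-12). Man1a1, a Golgi mannosidase, fell in NRK-52E cells (-0.64, adjusted p = 9.09e-06) and rose in NRK-49F cells (0.49, adjusted p = 0.00106). The largest fall in NRK-49F cells was that of Ufd1 (-0.28, adjusted p = 0.0498), a cofactor of the p97 ATPase.

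Of 33 other folding genes, NRK-52E cells had 14 higher and 10 lower (median 0.15), where all genes gave 24.7% and 36.6%. NRK-49F cells had 7 higher and 2 lower (median 0.07), where all genes gave 14.5% and 14.4%. Lman1, a cargo receptor for ER export, rose most in NRK-52E cells (1.23, adjusted p = 1.66e-13), and the prolyl isomerase Ppic fell most (-1.58, adjusted p = 2.64e-14). In NRK-49F cells, Ero1a, the paralog of Ero1b, rose most (0.81, adjusted p = 9.93e-09) and Fkbp7, another prolyl isomerase, fell most (-0.95, adjusted p = 5.02e-07). Ero1a rose in NRK-52E cells too (1.08, adjusted p = 6.53e-12). Of 10 further factors around the sensors, NRK-52E cells had 4 higher and 4 lower, and NRK-49F cells had 1 higher and 2 lower, beside those same shares. The apoptosis gene Bbc3 rose most in NRK-52E cells (1.33) and Creb3l2 fell most (-0.62), and in NRK-49F cells Wfs1 rose (0.32) and Creb3l1 fell (-0.43).

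A list for the PERK and ATF4 branch shares Dnajc3 with the members. Of its 11 tested genes, 10 rose and 0 fell in NRK-52E cells (median 0.68), where 24.7% and 36.6% of all genes did. In NRK-49F cells 4 of 11 rose and 0 fell (median 0.16), where 14.5% and 14.4% of all genes did. Trib3, a pseudokinase gene induced by ATF4, measured 20.7 ± 2.79 FPM (SD, n = 6) at pH 7.4 and 124 ± 49.7 FPM (SD, n = 6) at pH 6.0 in NRK-52E cells (log2 fold change 2.58 ± 0.204 SE, adjusted p = 1.73e-10), the largest rise of the list in that line. Atf3, a stress-induced transcription factor, rose most in NRK-49F cells, with 3.47 ± 0.679 FPM (SD, n = 6) at pH 7.4 and 36.4 ± 7.23 FPM (SD, n = 5) at pH 6.0 (log2 fold change 3.40 ± 0.195 SE, adjusted p = 8.43e-12). Its rise was larger in NRK-49F than in NRK-52E cells by 1.34 on the log2 scale (adjusted p = 0.00023), while that of Trib3 was larger in NRK-52E cells by 0.86 (adjusted p = 0.0189).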

How the data were processed

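Poly(A) RNA of rat NRK-52E and NRK-49F cells was sequenced in read pairs. The deposited values are raw counts per Ensembl gene, which the authors made with HISAT2 (2.1.0 in the submitters' processing notes) and featureCounts, with multi-mapping reads counted, so a gene with a close copy may carry reads of that copy. The methods name rn7 and the submitters' notes rn6, no coordinates are taken from the counts, and the strand setting is not given in the sources used here. Of the sample columns, 23 were used, and 13 that matched no sample label were not. The values were not normalized by the authors.

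Counts were analysed in R 4.3.3 with edgeR 4.0.16: filterByExpr (minimum count 10, minimum total 15), TMM, and the quasi-likelihood test in 1 model of 4 conditions over 23 samples. P-values were Benjamini-Hochberg adjusted over all 14777 genes tested, with a threshold of 0.05. Changes within sample groups came from a model of line, pH and sample group (15478 genes). FPM are edgeR's counts per 1000000 of TMM-scaled libraries, and an SE is the absolute log2 fold change divided by the square root of F. No 2 columns were identical, and no replicate code occurs at both pH values, so no pairing was used. The steps were tested on simulated data. Alternatives were RLE scaling, no filter, DESeq2 1.42.0, each line alone, the sample group as a block or apart, and each library left out. Total counts of 16412564 to 34250535 limit the precision for genes of few counts such as Manf.

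Values per sample, or their range and median, are given for Hspa5, the sensors and Xbp1. The same holds for the called member with the largest rise and fall of each other role and line (mean at least 5 FPM). It also holds for members called in opposite directions and for the 3 largest differences between the lines. The members and all lists were chosen with earlier results of these data known. Promoter windows are RefSeq's (GRCr8), matched by symbol, and for Hyou1, which had 2 windows, the first was used. Uggt2, Cnpy4, Srp54, Srprb, Ost4, Creb3, Krt19 and Ocln were not analysed here, Nupr1 is listed as Nupr1l1, and protein sequences were not analysed here. Figures were drawn with matplotlib 3.10.9.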

Additional observations from a re-analysis of the deposited data

Results flagged for a closer look

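In 5 of 160 groups of samples a single sample stood apart from the others of its group, where chance alone gives about 1 in 20 groups. In NRK-52E cells at pH 7.4 sample A035 was highest for Sil1 (95.4 FPM) and lowest for Atf6 (23.3 FPM) and Eif2ak3 (37.9 FPM). In NRK-49F cells sample A052 was highest for Dnajc3 at pH 7.4 (47.5 FPM), and A042 was highest for Ssr1 at pH 6.0 (303 FPM). Without A035, 25 members rose and 4 fell in that line.

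The change from pH 7.4 to pH 6.0 differed between the lines for 24 members by the test of the difference itself (log2 fold change in NRK-52E minus that in NRK-49F cells). Among chaperones and cochaperones the difference was 1.53 for Hspa5, 0.65 for Hyou1, 0.75 for Dnajb9, 0.76 for Dnajc3, 1.06 for Sdf2l1, 1.58 for Manf and -0.76 for Sil1. Among genes of disulfide formation it was 0.47 for Pdia3, 0.96 for Pdia5 and 2.37 for Txndc11. Among ERAD genes it was 0.63 for Herpud1, 1.54 for Sel1l, 0.95 for Syvn1, 0.92 for Derl1, 1.29 for Selenos, 0.83 for Erlec1, -0.93 for Edem1, -0.84 for Edem2 and -0.58 for Os9. For the sensors and transcription factors it was 0.81 for Xbp1, 1.25 for Atf6 and 1.34 for Eif2ak3, and at the translocon 1.36 for Sec61a1 and 0.38 for Ssr1.

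Within NRK-52E cells, the change differed between sample groups for 10 members (sample group 3 minus sample group 1). The difference was 1.34 for Hspa5, 0.43 for Hyou1, 0.49 for Dnajb9, 0.60 for Dnajb11, 0.56 for Dnajc3, 0.53 for Canx, 0.91 for Txndc11 and 1.21 for Atf6, and it was -0.72 for Edem2 and -0.58 for Os9. DESeq2 called 11 members and 14% of all genes, against 9.91% of all genes in edgeR.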

How the results depend on the processing

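The counts of changed members in NRK-52E cells (26 higher, 5 lower) stayed within 26 to 27 and 4 to 5 under RLE scaling, no filter, DESeq2, calls by both tools, each line alone and the sample group as a block, and within 24 to 26 and 4 to 5 without each library in turn. In sample group 1 alone, 3 members were lower, and Canx turned to -0.03 (adjusted p = 0.844). In NRK-49F cells, the block gave 8 higher and 4 lower, and a fit of the line alone 7 higher and 4 lower. Leaving out libraries gave 3 to 7 higher and 3 lower throughout, sample group 4 alone 1 lower, and sample group 6 alone 2 higher and 5 lower. The number of members whose change differed between the lines (24) ranged from 21 to 26 without each library, fell to 13 within sample groups 1 and 4, and was 28 within sample groups 3 and 6. At pH 7.4, 5 to 8 members were higher and 13 to 16 lower in NRK-52E cells without each library, and at pH 6.0, 23 to 24 and 8 to 11. Without P4hb the share of counts was 0.915% in NRK-52E and 0.838% in NRK-49F cells at pH 7.4. At pH 6.0 it was 1.33% in NRK-52E and 0.789% in NRK-49F cells. In a window of 150 bases before the start, 8 members held an element. By construction, a sample group alone holds fewer samples and the shorter window fewer bases. The cause of these shifts was not tested. No paired analysis was possible because no replicate code occurs at both pH values. Depth limits Manf, with 2 to 25 counts.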
